A study of Mus musculus with 12 samples.

Results

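The fibroblast matrix genes are 10 genes that mark fibroblasts and the extracellular matrix they make. They are the collagen chains Col1a1, Col1a2, Col3a1 and Col6a1, the proteoglycans Dcn and Lum, the glycoproteins Sparc and Fn1, and the growth factor receptors Pdgfra and Pdgfrb. They were chosen by symbol with earlier results of these data known, so counts of members set beside shares of all genes are descriptions. All 10 stand among the 26121 genes listed in both deposited count tables, so that each had a raw count in all 12 libraries. All 10 passed the filter on low counts in each of the 4 comparisons.

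RNA of the duodenum of C57BL/6N mice was sequenced in 4 groups of 3 libraries. The HFD PCN group ate a high-fat diet (HFD) and was given pregnenolone 16α-carbonitrile, abbreviated PCN, which activates the pregnane X receptor of rodents, at 50 mg/kg in the peritoneum once a day for 4 days. The HFD Vehicle group ate the same diet and was injected on the same schedule with 30% DMSO in corn oil. The HFD group ate the high-fat diet with no injection named in its labels, and the Chow group ate chow. Diets began at 6 weeks of age and lasted 18 weeks, so all groups other than Chow carry the high-fat diet. Library numbers given below are those of the labels. Nothing in the labels says that the libraries came from separate animals, and the p-values may then measure only the spread between these samples, which may be technical.

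Fibroblasts of the intestine lie under the epithelium, in the lamina propria of the villi and in the submucosa. They secrete type I and type III collagen, which assemble into fibrils, and type VI collagen, which forms beaded microfibrils around cells. Decorin and lumican bind to the fibrils and limit their thickness, Sparc binds collagen as it is deposited, and fibronectin forms a network to which cells attach through integrins. Pdgfra and Pdgfrb are receptors for platelet-derived growth factors, and Pdgfrb is carried by pericytes of small vessels as well as by fibroblasts.

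Promoters are shown for 2 collagen chain genes and 1 receptor gene, chosen by their fold changes. In size, those of Col1a2 and Col3a1 exceeded that of Pdgfra in all comparisons other than HFD Vehicle against HFD. RefSeq (GRCm38.p6) gave a promoter for 5 of the 10 genes, namely Col1a2, Col3a1, Col6a1, Sparc and Pdgfra. Each run is 5′ to 3′ on the strand of the gene. It is the longest stretch of the 250 bases before the RefSeq start that holds no annotated exon of that gene. The Col1a2 run lies within the annotated span of its gene (chr6:4504814-4541544), and the Col3a1 and Pdgfra runs lie before theirs. In the Col1a2 run (chr6:4505370-4505492, plus strand, bases -248 to -126 from the start of transcription) capitals mark 2 copies of GGGCGG. In the Col3a1 run (chr1:45311288-45311537, plus strand) capitals mark TATAA read on both strands, at bases -118 and -117, where the copies overlap. The Pdgfra run (chr5:75152001-75152250, plus strand) holds none of the motifs searched and has no capitals.
Col1a2: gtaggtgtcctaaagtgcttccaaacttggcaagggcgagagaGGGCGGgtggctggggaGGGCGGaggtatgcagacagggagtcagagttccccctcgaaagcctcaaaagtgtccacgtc
Col3a1: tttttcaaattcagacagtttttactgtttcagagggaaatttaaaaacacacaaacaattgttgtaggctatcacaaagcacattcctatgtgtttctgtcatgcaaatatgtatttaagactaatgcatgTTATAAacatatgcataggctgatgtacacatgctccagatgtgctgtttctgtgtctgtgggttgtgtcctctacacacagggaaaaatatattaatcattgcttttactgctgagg
Pdgfra: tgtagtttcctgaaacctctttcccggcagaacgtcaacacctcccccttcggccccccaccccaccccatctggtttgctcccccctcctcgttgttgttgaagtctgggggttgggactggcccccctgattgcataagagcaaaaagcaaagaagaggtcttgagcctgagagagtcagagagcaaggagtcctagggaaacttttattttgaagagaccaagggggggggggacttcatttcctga
These motifs were searched on both strands in the 250 bases before each RefSeq start: the CAAT box CCAAT, the core of the TATA box TATAA, the GC box GGGCGG and the AP-1 site TGACTCA. Col1a2 had CCAAT at base -109 and GGGCGG at -205 and -188, Col3a1 had TATAA alone, Col6a1 had TGACTCA at -90, and Sparc and Pdgfra had no match. Of all 32851 mouse promoters of the same length, 33.8% held CCAAT, and 22.8% held TATAA, while GGGCGG stood in 32.7% and TGACTCA in 4.46%. No motif was found in more than 1 of the 5 promoters.

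Libraries held 4676718 (HFD Vehicle 55) to 20684369 (HFD PCN 5) counts, and the 10 genes took 0.0225% to 0.0576% of them. The extraction protocol names liver although the tissue label is duodenum. The enterocyte gene Vil1 stood at 1172 to 2390 CPM (counts per 1000000, scaled by TMM over the 12 libraries) and the hepatocyte gene Alb at 0.107 to 1.16 CPM. HFD Vehicle 23 and HFD 4 stood apart from the other libraries, with 37.8% and 37.2% of their counts in mitochondrial and rRNA-like genes, against 12.3% to 23.4% in the rest. HFD Vehicle 23 and HFD Vehicle 50 had sums over 4 heat shock chaperone genes of 5912 and 4929 CPM, against 695 to 2273 CPM in the rest.

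In bulk tissue, fewer fibroblasts and less RNA of these genes per fibroblast cannot be told apart. Per kilobase of annotated exon, the mean level over the 12 libraries was highest for Col6a1 at 13.3 ± 4.38 CPM per kilobase (SD, n = 12), followed by Col3a1 at 8.95 ± 3.12, Fn1 at 6.87 ± 1.68 and Pdgfra at 6.01 ± 1.01. Below these lay Sparc at 5.97 ± 1.75 CPM per kilobase, Col1a1 at 4.89 ± 2.76, Pdgfrb at 4.49 ± 1.39, Col1a2 at 4.01 ± 1.76, Dcn at 3.46 ± 1.02 and Lum at 1.12 ± 0.441. Each gene down to Dcn differed from its neighbour in this order by less than the larger of their SDs. Lum lay below Dcn by more than either SD. Exons of all annotated transcripts were merged for the length, so a long rare transcript lowers the level of a gene such as Col1a2, with 12426 merged exon bases. Col1a1 varied most, with its highest library at 8.77 times its lowest in CPM, and Pdgfra least, at 1.71 times.

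All members but Dcn had their highest group mean in HFD or HFD Vehicle, and the collagen chains, Sparc, Fn1 and the receptors had lower means in HFD PCN and in Chow than in HFD. Relative to HFD, Col1a1 and Col3a1 fell in HFD PCN, 2 of 10 members against 0.0813% of all genes called lower. Both calls were lost when HFD 4, HFD 30 or HFD PCN 5 was left out, and this comparison does not separate PCN from injection. No member passed the test in HFD PCN against HFD Vehicle (0.0621% of genes called), HFD Vehicle against HFD (0%) or HFD against Chow (0.0655%). Dcn had its highest mean in Chow. The comparisons share libraries: HFD enters 3 of them, and HFD PCN and HFD Vehicle 2 each, so that their values are given side by side and are not separate evidence.

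**Figure D1:**
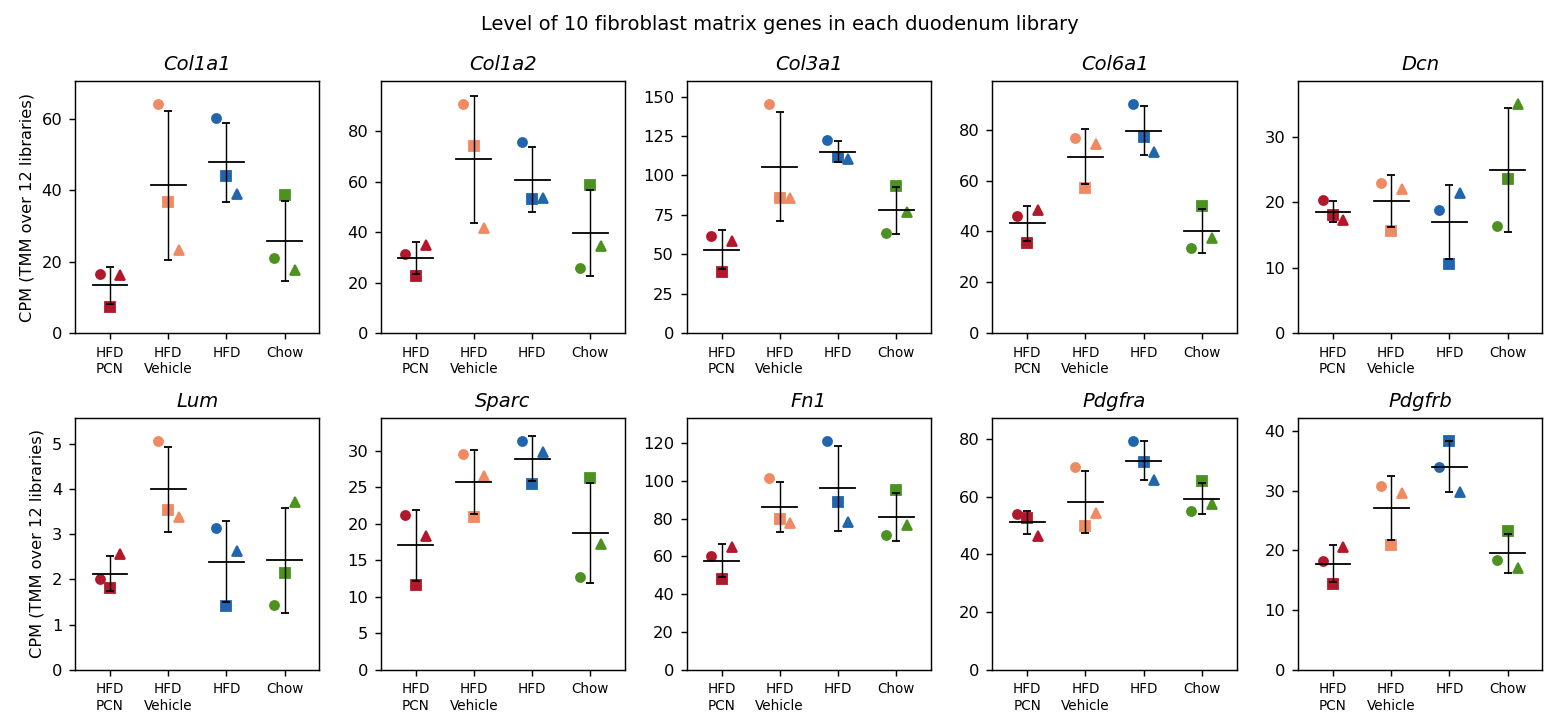
Level of each of the 10 genes in CPM (TMM over 12 libraries, axes from 0) in the libraries of HFD PCN, HFD Vehicle, HFD and Chow, with the group mean and SD as bars. Circle, square and triangle are the libraries of a group in rising order of their number. Col1a1 ran from 7.33 CPM in HFD PCN 11 to 64.3 CPM in HFD Vehicle 23, while Pdgfra stayed between 46.4 and 79.5 CPM.

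Type I collagen is a trimer of 2 kinds of chain, made from Col1a1 (ENSMUSG00000001506, chr11:94936224-94953042, GRCm38) and Col1a2 (ENSMUSG00000029661, chr6:4504814-4541544). Col1a1 stood at 16.4, 7.33 and 16.3 CPM in HFD PCN 5, 11 and 27, at 64.3, 36.9 and 23.2 CPM in HFD Vehicle 23, 50 and 55, at 60.4, 44.1 and 39.1 CPM in HFD 4, 30 and 38, and at 20.96, 38.7 and 17.7 CPM in Chow 8, 17 and 19. All 3 HFD PCN libraries lay below every other library, and HFD lay above Chow by a narrow gap between 39.1 and 38.7 CPM. The group means were 13.4 ± 5.22 CPM in HFD PCN, 41.5 ± 20.9 in HFD Vehicle, 47.9 ± 11.1 in HFD and 25.8 ± 11.3 in Chow (SD, n = 3 each). Col1a1 fell by 1.84 on the log2 scale in HFD PCN against HFD (SE 0.31, adjusted p = 0.0488, edgeR's quasi-likelihood test with Benjamini-Hochberg adjustment over all genes). Against HFD Vehicle the log2 fold change of HFD PCN was -1.66 (SE 0.41, edgeR adjusted p = 0.231), and for HFD against Chow it was 0.90 (SE 0.30, edgeR adjusted p = 0.409). For Col1a1 in HFD PCN against HFD Vehicle, the authors' deposited table gives -1.35 and an adjusted p of 0.0253.

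Col1a2 stood at 31.2, 22.7 and 34.95 CPM in HFD PCN 5, 11 and 27, at 90.9, 74.2 and 41.5 CPM in HFD Vehicle 23, 50 and 55, at 75.9, 53.3 and 53.5 CPM in HFD 4, 30 and 38, and at 25.7, 58.7 and 34.7 CPM in Chow 8, 17 and 19. HFD PCN lay below both other high-fat groups without overlap, while HFD and Chow overlapped through Chow 17. The log2 fold change was -1.04 in HFD PCN against HFD (SE 0.21, edgeR adjusted p = 0.0633) and -1.23 in HFD PCN against HFD Vehicle (SE 0.30, edgeR adjusted p = 0.231). The authors' deposited table has -1.08 with an adjusted p of 0.0375 for the second of these comparisons. HFD against Chow gave 0.62 (SE 0.29, edgeR adjusted p = 0.499).

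Type III collagen shares fibrils with type I in soft tissues and is a trimer of the product of Col3a1 (ENSMUSG00000026043, chr1:45311538-45349706). Col3a1 stood at 61.6, 38.7 and 58.1 CPM in HFD PCN 5, 11 and 27, at 145, 85.9 and 85.4 CPM in HFD Vehicle 23, 50 and 55, at 123, 112 and 111 CPM in HFD 4, 30 and 38, and at 63.5, 93.1 and 77.0 CPM in Chow 8, 17 and 19. Again the HFD PCN libraries were the lowest 3, and all HFD libraries exceeded all Chow libraries. Of all 10 genes, it followed the mean of the other 9 most closely across libraries. Col3a1 fell by 1.12 on the log2 scale in HFD PCN against HFD (SE 0.19, edgeR adjusted p = 0.0345). HFD PCN against HFD Vehicle gave -1.01 (SE 0.27, edgeR adjusted p = 0.231) and HFD against Chow 0.56 (SE 0.17, edgeR adjusted p = 0.337).

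Type VI collagen is built from separate alpha chains, of which Col6a1 (ENSMUSG00000001119, chr10:76708792-76726168) encodes the first. Col6a1 stood at 46.2, 35.5 and 48.3 CPM in HFD PCN 5, 11 and 27, at 76.7, 56.9 and 74.5 CPM in HFD Vehicle 23, 50 and 55, at 90.2, 77.2 and 71.4 CPM in HFD 4, 30 and 38, and at 33.4, 50.0 and 37.4 CPM in Chow 8, 17 and 19. HFD PCN and Chow occupied the same range, and both lay below HFD and HFD Vehicle without overlap. The group means were 43.3 ± 6.89 CPM in HFD PCN, 69.4 ± 10.8 in HFD Vehicle, 79.6 ± 9.66 in HFD and 40.3 ± 8.69 in Chow (SD, n = 3 each). HFD against Chow gave 0.98 on the log2 scale (SE 0.19, edgeR adjusted p = 0.127). Col6a1 passed there with DESeq2 (adjusted p = 0.00298) and also in the authors' deposited table (0.84, adjusted p = 0.00562). For HFD PCN against HFD it was -0.88 (SE 0.18, edgeR adjusted p = 0.0633) and HFD PCN against HFD Vehicle -0.69 (SE 0.21, edgeR adjusted p = 0.231).

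Decorin, the product of Dcn (ENSMUSG00000019929, chr10:97479609-97518143), and lumican, the product of Lum (ENSMUSG00000036446, chr10:97565128-97572703), are small leucine-rich proteoglycans whose genes are neighbours on chromosome 10. Dcn stood at 20.3, 18.1 and 17.3 CPM in HFD PCN 5, 11 and 27, at 23.0, 15.6 and 22.1 CPM in HFD Vehicle 23, 50 and 55, at 18.9, 10.6 and 21.4 CPM in HFD 4, 30 and 38, and at 16.3, 23.6 and 35.1 CPM in Chow 8, 17 and 19. Its groups overlapped in every comparison, and Chow 19 was the highest library. The log2 fold change was 0.14 in HFD PCN against HFD (SE 0.25), -0.12 in HFD PCN against HFD Vehicle (SE 0.23) and -0.59 in HFD against Chow (SE 0.33), with edgeR adjusted p-values of 0.783, 0.776 and 0.549 in that order.

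Lum rested on few reads, with 12 to 71 counts per library. It stood at 2.01, 1.81 and 2.55 CPM in HFD PCN 5, 11 and 27, at 5.07, 3.52 and 3.38 CPM in HFD Vehicle 23, 50 and 55, at 3.14, 1.41 and 2.63 CPM in HFD 4, 30 and 38, and at 1.43, 2.13 and 3.70 CPM in Chow 8, 17 and 19. HFD Vehicle lay above both HFD PCN and HFD without overlap, and HFD PCN, HFD and Chow shared a range. The log2 fold change was -0.94 in HFD PCN against HFD Vehicle (SE 0.33, edgeR adjusted p = 0.242) and -0.11 in HFD PCN against HFD (SE 0.38, edgeR adjusted p = 0.895).

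Sparc (ENSMUSG00000018593, chr11:55394500-55423183) encodes a collagen-binding glycoprotein that is also made by endothelium. Sparc stood at 21.2, 11.7 and 18.4 CPM in HFD PCN 5, 11 and 27, at 29.6, 20.98 and 26.6 CPM in HFD Vehicle 23, 50 and 55, at 31.4, 25.5 and 29.9 CPM in HFD 4, 30 and 38, and at 12.7, 26.3 and 17.3 CPM in Chow 8, 17 and 19. HFD PCN lay below HFD without overlap and overlapped HFD Vehicle by 21.2 against 20.98 CPM, and Chow 17 reached into the HFD range. The log2 fold change was -0.76 in HFD PCN against HFD (SE 0.22, edgeR adjusted p = 0.152) and 0.62 in HFD against Chow (SE 0.24, edgeR adjusted p = 0.442).

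Fibronectin, from Fn1 (ENSMUSG00000026193, chr1:71585520-71653200), is secreted by fibroblasts in its cellular form and is the matrix ligand of several integrins. Fn1 stood at 60.4, 47.8 and 64.9 CPM in HFD PCN 5, 11 and 27, at 101, 79.6 and 77.7 CPM in HFD Vehicle 23, 50 and 55, at 121, 89.0 and 78.0 CPM in HFD 4, 30 and 38, and at 71.1, 95.3 and 76.6 CPM in Chow 8, 17 and 19. HFD and Chow overlapped, and all HFD PCN libraries were below every other library. HFD against Chow gave 0.24 on the log2 scale (SE 0.20, edgeR adjusted p = 0.675). For HFD PCN against HFD it was -0.74 (SE 0.21, edgeR adjusted p = 0.143) and HFD PCN against HFD Vehicle -0.59 (SE 0.21, edgeR adjusted p = 0.241).

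Of the receptors, Pdgfra (ENSMUSG00000029231, chr5:75152292-75198215) binds all PDGF chains other than PDGF-D and marks most fibroblasts of the gut. Pdgfra stood at 54.1, 52.7 and 46.4 CPM in HFD PCN 5, 11 and 27, at 70.3, 49.9 and 54.4 CPM in HFD Vehicle 23, 50 and 55, at 79.5, 72.0 and 65.9 CPM in HFD 4, 30 and 38, and at 55.2, 65.4 and 57.4 CPM in Chow 8, 17 and 19. HFD had the highest mean and lay without overlap above HFD PCN and, by 65.9 against 65.4 CPM, above Chow. The log2 fold change was -0.50 in HFD PCN against HFD (SE 0.16, edgeR adjusted p = 0.178), -0.20 in HFD PCN against HFD Vehicle (SE 0.20, edgeR adjusted p = 0.593) and 0.28 in HFD against Chow (SE 0.15, edgeR adjusted p = 0.530).

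Pdgfrb (ENSMUSG00000024620, chr18:61045150-61085061) stood at 18.3, 14.4 and 20.6 CPM in HFD PCN 5, 11 and 27, at 30.7, 20.9 and 29.6 CPM in HFD Vehicle 23, 50 and 55, at 33.9, 38.4 and 29.8 CPM in HFD 4, 30 and 38, and at 18.3, 23.2 and 17.0 CPM in Chow 8, 17 and 19. As for Col6a1, HFD PCN and Chow shared a range below that of HFD. The log2 fold change was -0.94 in HFD PCN against HFD (SE 0.19, edgeR adjusted p = 0.0562) and 0.80 in HFD against Chow (SE 0.18, edgeR adjusted p = 0.195). The second of these passed with DESeq2 (adjusted p = 0.0436) and in the authors' deposited table has an adjusted p of 0.0565. Between the injected groups it was -0.62 (SE 0.24, edgeR adjusted p = 0.252).

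**Figure D2:**
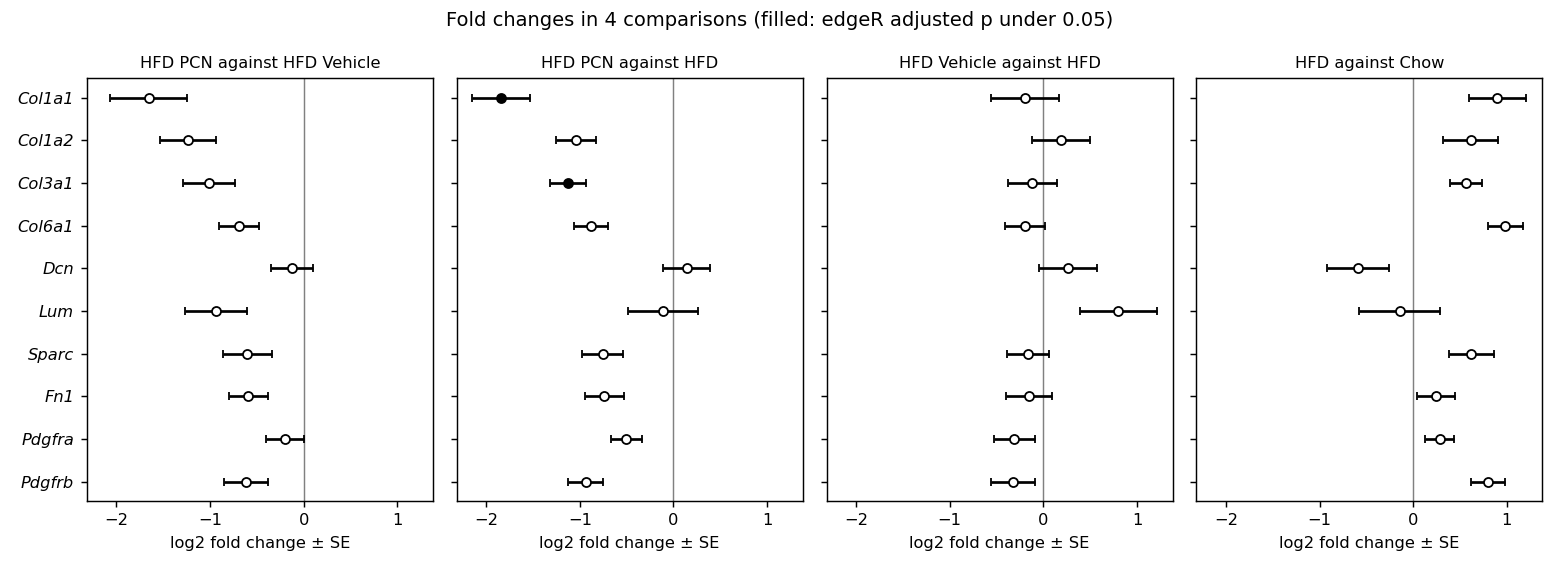
Log2 fold change with its SE (horizontal axis) of the 10 genes (rows) in the 4 comparisons, from edgeR, with filled points at an adjusted p under 0.05. The filled points are Col1a1 (-1.84) and Col3a1 (-1.12) in HFD PCN against HFD. Dcn and Lum are near 0 in that comparison, and the remaining genes are negative.

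The comparison of HFD PCN with HFD sets the treated mice against mice on the same diet without injection. PCN and the injection therefore cannot be told apart in it, and the groups come from different deposited tables. Of the 10 genes, 2 (Col1a1 and Col3a1) passed edgeR's adjusted p in the lower direction, against 0.0813% of the 15982 genes tested. All members other than Dcn and Lum, 8 in all, lay lower in HFD PCN without overlap, against 12.1% of all genes, and the same number had an unadjusted p under 0.05 in that direction, against 9.85%. A negative log2 fold change was seen in 9 of 10, against 49.9% of all genes. DESeq2 called 5 members (Col1a1, Col1a2, Col3a1, Col6a1 and Pdgfrb), against 3.04% of genes. The median log2 fold change of the 10 genes was -0.82, and that of all genes was 0.00. Without HFD 4, which stood apart, neither gene passed: Col1a1 had a log2 fold change of -1.62 (edgeR adjusted p = 0.174) and Col3a1 of -1.05 (edgeR adjusted p = 0.147), and 1 gene of all was called. Both calls were also lost without HFD 30 (edgeR adjusted p = 0.170 and 0.110) or without HFD PCN 5 (0.0646 and 0.0523), and Col3a1 lost its call without HFD PCN 11 (0.190).

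HFD PCN against HFD Vehicle is the comparison in which both groups were injected. No member passed edgeR's adjusted p, and 10 of 16110 genes did (0.0621%). By contrast, 8 members had an unadjusted p under 0.05 in the lower direction, against 11.5% of genes, and 7 lay lower in HFD PCN without overlap, against 8.83%. Those 7 were Col1a1, Col1a2, Col3a1, Col6a1, Lum, Fn1 and Pdgfrb. All 10 log2 fold changes were negative, against 51.0% of all genes, with a median of -0.65 against -0.01 for all genes. Col1a1 and Col1a2 passed with DESeq2, which called 1.93% of genes, and in the authors' deposited table, which has 0.752% of its genes under 0.05. With HFD Vehicle 23 and 50 left out together, leaving 1 HFD Vehicle library that is assumed to vary like the HFD PCN libraries, Col1a1 had a log2 fold change of -0.84 and Col1a2 of -0.52 (edgeR adjusted p = 0.997 for each), while Col6a1 had -0.82. Leaving out HFD Vehicle 55 alone gave edgeR adjusted p-values of 0.00845 for Col1a1 (-1.92), 0.00166 for Col1a2 (-1.48) and 0.0148 for Col3a1 (-1.13). That fit called 3697 genes, where the main fit tested 16110, so many genes besides these members passed. It kept HFD Vehicle 23 and 50, the libraries with the high heat shock chaperone sums, whose part was not tested. With all 6 libraries, markers of some other cells were lower too, with none called. Macrophage genes were negative in 7 of 7 (median -0.37), pericyte genes in 5 of 5 (median -0.68) and mesothelial genes in 4 of 4 (median -1.57). Other fibroblast markers were negative in 8 of 10 (median -0.24) and blood endothelial genes in 6 of 9 (median -0.24). Adipocyte and enteric glia genes were negative in 1 of 2 each. Smooth muscle genes were negative in 10 of 10 (median -0.69, 7 with an unadjusted edgeR p under 0.05). Pancreatic acinar genes were negative in 9 of 9 (median -2.34, 4 under 0.05). Epithelial genes went the other way, with 6 of 8 positive (median 0.36) and none called. Smooth muscle genes summed to 634 to 757 CPM in HFD PCN and 695 to 1302 CPM in HFD Vehicle, and acinar genes to 2.44 to 21.2 CPM in HFD PCN and 11.5 to 83.5 CPM in HFD Vehicle, with 83.5 CPM in HFD Vehicle 23. With HFD Vehicle 23 and 50 left out together, the medians were -0.12 for smooth muscle and 0.36 for acinar genes. Their part in the result was not tested.

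HFD Vehicle against HFD sets injected against uninjected mice on the diet. EdgeR called 0 of 16255 genes (0%), while 953 genes (5.86%) and no member had an unadjusted p under 0.05. DESeq2 called 32 genes (0.18%), none of them members, and limma-voom called 0. The members' log2 fold changes ran from -0.33 (Pdgfrb, SE 0.24) to 0.80 (Lum, SE 0.41), with a median of -0.16. Lum, at an edgeR adjusted p of 0.803, was the 1 member that lay higher in HFD Vehicle without overlap, against 4.39% of all genes.

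HFD against Chow is the comparison of diets. None of the members passed edgeR's adjusted p, and 10 of 15278 genes did (0.0655%). An unadjusted p under 0.05 in the higher direction was found for 5 members (Col1a1, Col3a1, Col6a1, Sparc and Pdgfrb), against 5.75% of genes, and 8 of 10 log2 fold changes were positive, against 50.5%. On the scale of the 12 libraries, Col1a1, Col3a1, Col6a1, Pdgfra and Pdgfrb lay higher in HFD without overlap, 5 of 10 against 8.34% of genes. With TMM of these 6 libraries alone, Col3a1, Col6a1 and Pdgfrb did, 3 of 10 against 8.14%. DESeq2 called 2 members, Col6a1 and Pdgfrb, against 0.893% of genes, and the authors' deposited table has 1 member, Col6a1, under 0.05, against 0.378% of its genes. The median log2 fold change of the members was 0.59, and that of all genes was 0.00. Without HFD 4, Col6a1 had 0.85 (edgeR adjusted p = 0.190), Pdgfrb 0.77 (0.231), Col1a1 0.67 (0.439) and Fn1 0.0038 (0.995). Pancreatic acinar genes, a list of 11, summed to 4.51 to 25.5 CPM in HFD and 48.6 to 131 CPM in Chow, with 9 of 9 measured genes negative, and their part in the result was not tested.

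Levels of pairs of genes within a library do not depend on how libraries are scaled. The number of Col1a1 counts per Pdgfra count was 0.304, 0.139 and 0.351 in HFD PCN 5, 11 and 27, against 0.915, 0.739 and 0.427 in HFD Vehicle 23, 50 and 55, and 0.760, 0.612 and 0.594 in HFD 4, 30 and 38. HFD PCN lay below both without overlap, by a log2 difference of -1.43 from HFD Vehicle and of -1.41 from HFD. Each has an exact two-sided permutation p of 0.1, the smallest that 3 against 3 libraries allow, and a value of 0.212 after Benjamini-Hochberg adjustment over the 36 ratio tests made. Col3a1 per Pdgfra differed the same way, by -0.81 from HFD Vehicle and -0.65 from HFD, and Col6a1 per Pdgfra by -0.50 and -0.38, each without overlap and with the same exact permutation p of 0.1. Other members per Pdgfra did not all move this way. Dcn per Pdgfra was 0.376, 0.344 and 0.372 in HFD PCN 5, 11 and 27, against 0.237, 0.147 and 0.325 in HFD 4, 30 and 38, so that HFD PCN lay above HFD without overlap, by 0.70 on the log2 scale (exact permutation p = 0.1). Per Pdgfra, the differences of HFD PCN from HFD were -0.54 for Col1a2, -0.30 for Sparc, -0.22 for Fn1 and 0.40 for Lum, all with overlapping groups (exact permutation p = 0.2, 0.4, 0.4 and 0.6). From HFD Vehicle they were -0.99 for Col1a2, -0.72 for Lum, -0.45 for Sparc and -0.40 for Fn1 without overlap (exact permutation p = 0.1 each), and 0.07 for Dcn with overlap (exact permutation p = 0.6). Some gaps were narrow: HFD PCN 27 against HFD Vehicle 55 was 0.753 against 0.763 for Col1a2 and 1.40 against 1.43 for Fn1. For Col6a1, HFD PCN 27 at 1.04 lay near HFD 30 at 1.07 and HFD Vehicle 23 at 1.09. Non-overlap of all genes per Pdgfra was not computed, so these are descriptions. In Chow the Col6a1 counts per Pdgfra count were 0.605, 0.765 and 0.651, below 1.14, 1.07 and 1.08 in HFD. Fn1 per Pdgfra differed between HFD and Chow by -0.06 on the log2 scale, with overlapping groups.

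The ratio of the chains of type I collagen varied between libraries. Col1a1 counts per Col1a2 count were 0.526, 0.323 and 0.466 in HFD PCN, 0.707, 0.497 and 0.560 in HFD Vehicle, 0.796, 0.827 and 0.731 in HFD, and 0.815, 0.659 and 0.509 in Chow. HFD PCN lay below HFD without overlap (log2 difference -0.87, exact permutation p = 0.1), and so did HFD Vehicle (-0.43, exact permutation p = 0.1), while HFD PCN and HFD Vehicle overlapped (-0.44, exact permutation p = 0.2).

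**Figure D3:**
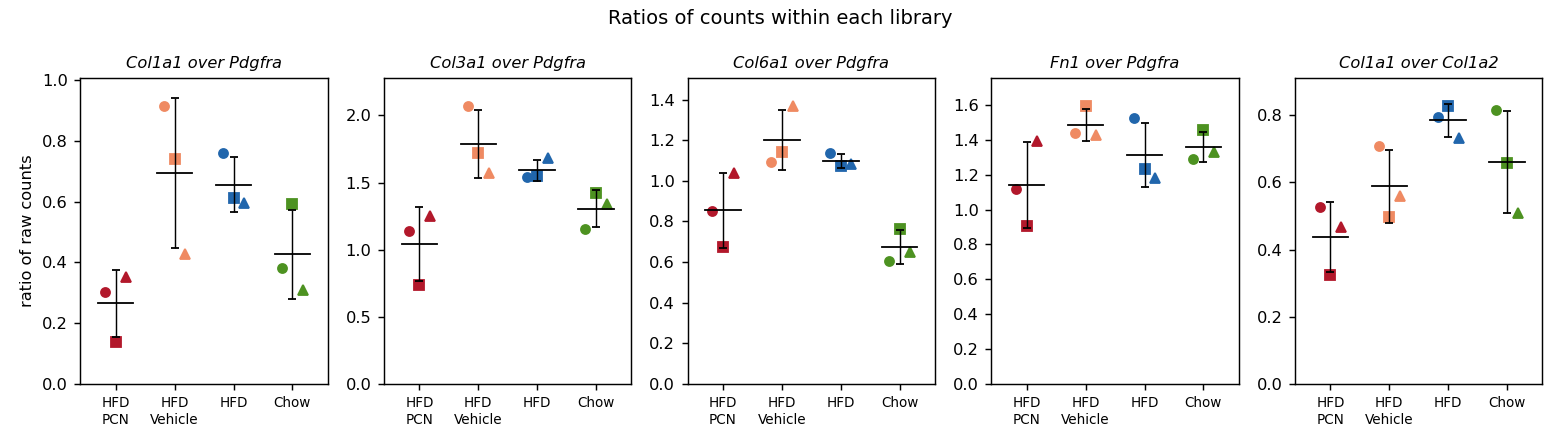
Ratio of raw counts of 2 genes within each library (vertical axes from 0) in HFD PCN, HFD Vehicle, HFD and Chow, with mean and SD, and the same symbols per library as in the plot of levels. Col1a1 per Pdgfra is 0.139 to 0.351 in HFD PCN and 0.594 to 0.760 in HFD, and Fn1 per Pdgfra overlaps between HFD and Chow.

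Wider matrix lists, written with earlier results of these data known, gave the surroundings of the 10 genes. In HFD PCN against HFD, 4 of 9 measured fibril collagen genes fell, against 0.0813% of all genes called lower: the 2 members above, Col5a1 (-1.29, SE 0.23, edgeR adjusted p = 0.0372) and Col5a3 (-2.52, SE 0.40, edgeR adjusted p = 0.0251), which encode chains of type V collagen, a minor part of type I fibrils. The list's median was -1.04, with 8 of 9 negative. Of 13 basement membrane genes, 2 fell: Col18a1, whose product carries the endostatin fragment (-1.35, SE 0.20, edgeR adjusted p = 0.0180), and Col4a2, a chain of the type IV network (-1.23, SE 0.23, edgeR adjusted p = 0.0488). Their median was -0.75, with 12 of 13 negative. Whether these genes passed depended on which library was left out, while the log2 fold changes of all 6 stayed negative. Without HFD 4, which stood apart from the other libraries, none of the 6 passed, and the edgeR adjusted p was 0.132 for Col5a1 (-1.03), 0.0871 for Col5a3 (-2.16), 0.0871 for Col18a1 (-1.39) and 0.179 for Col4a2 (-1.07). None of the 6 passed without HFD 30 either, Col1a1 alone passed without HFD PCN 11 and Col18a1 alone without HFD PCN 5, while all 6 passed without HFD 38 and without HFD PCN 27. In collagen VI, all 4 measured genes were negative and none passed. Col6a3, another alpha chain, had -0.88 (SE 0.17, edgeR adjusted p = 0.0530), beside -0.88 for Col6a1.

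Enzymes and chaperones of collagen processing were negative in 13 of 13 measured genes in HFD PCN against HFD (median -0.68), with none passing, and the smallest p was that of the prolyl 3-hydroxylase gene P3h3 (-1.11, SE 0.40, edgeR adjusted p = 0.196). The small leucine-rich proteoglycans had 4 of 7 negative and a median of -0.05. Podn, which encodes podocan of that family, had 0.46 (SE 0.22, edgeR adjusted p = 0.283). Among matricellular genes 8 of 10 were negative (median -0.36), and Thbs3, a thrombospondin gene, had -1.48 (SE 0.46, edgeR adjusted p = 0.166). Elastic and microfibril genes were negative in 7 of 9 (median -0.31), with -0.76 for the fibrillin gene Fbn1 (SE 0.18, edgeR adjusted p = 0.0966). None of the genes of these lists passed.

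None of the genes that act on the matrix or sense it passed in HFD PCN against HFD. Matrix turnover genes were negative in 7 of 9 (median -0.33), with -0.72 for Mmp14, a membrane-bound matrix metalloproteinase (SE 0.16, edgeR adjusted p = 0.0882). Matrix receptors were negative in 9 of 13 (median -0.32), with -0.90 for the integrin gene Itgb3 (SE 0.20, edgeR adjusted p = 0.0787). TGF beta pathway genes were negative in 9 of 13 (median -0.21), with -0.55 for the inhibitory Smad7 (SE 0.20, edgeR adjusted p = 0.196). Of the PDGF ligand genes 2 of 4 were negative (median -0.02), and Pdgfb, whose product binds both receptors, had -1.09 (SE 0.31, edgeR adjusted p = 0.146).

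In HFD PCN against HFD Vehicle no gene of these 11 lists passed. The fibril collagens were negative in 8 of 9 (median -1.23), with -1.43 for Col5a1 (SE 0.29, edgeR adjusted p = 0.202). Basement membrane genes were negative in 13 of 13 (median -0.84), with -1.30 for the perlecan gene Hspg2 (SE 0.36, edgeR adjusted p = 0.231). Collagen processing was negative in 12 of 14 (median -1.19), and the prolyl 4-hydroxylase gene P4ha2 had the smallest p, at -2.81 (SE 0.52, edgeR adjusted p = 0.200). The summed level of the collagen processing list was 94.3, 80.8 and 95.8 CPM in HFD PCN 5, 11 and 27, against 341, 229 and 101 CPM in HFD Vehicle 23, 50 and 55. The 2 high HFD Vehicle libraries are those with the high heat shock chaperone sums, whose part was not tested. With both left out, collagen processing was negative in 12 of 15 (median -0.48) and the fibril collagens in 8 of 9 (median -0.53). Without HFD Vehicle 55 alone, 9 of 14 collagen processing, 7 of 9 fibril collagen and 5 of 13 basement membrane genes passed as lower. That fit called 3697 genes in both directions together, where the main fit tested 16110. Its share of all genes called lower is not given here, so these list counts cannot be read against it. P4ha2 had 1.73 in HFD Vehicle against HFD (SE 0.62, edgeR adjusted p = 0.803). Serpinh1, a heat shock protein that chaperones procollagen and that was picked here after its values were seen, had -2.76 in HFD PCN against HFD Vehicle (SE 0.84, edgeR adjusted p = 0.240) but -0.24 in HFD PCN against HFD (SE 0.25, edgeR adjusted p = 0.631) and 2.51 in HFD Vehicle against HFD (SE 0.72, edgeR adjusted p = 0.803).

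In HFD against Chow no gene of the lists passed either. Basement membrane genes were positive in 13 of 13 (median 0.56), with 1.28 for the laminin gene Lama5 (SE 0.24, edgeR adjusted p = 0.127). Collagen VI was positive in 3 of 4 (median 0.82), with 0.86 for Col6a2 (SE 0.17, edgeR adjusted p = 0.156), and fibril collagens in 8 of 9 (median 0.64), with 0.87 for Col5a2 (SE 0.26, edgeR adjusted p = 0.337). Collagen processing was positive in 13 of 14 (median 0.48), the exception being the crosslinking enzyme gene Lox at -2.25 (SE 0.53, edgeR adjusted p = 0.203). Small leucine-rich proteoglycans were positive in 1 of 7 (median -0.41), with -0.73 for Ogn, which encodes osteoglycin (SE 0.28, edgeR adjusted p = 0.429).

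**Figure D4:**
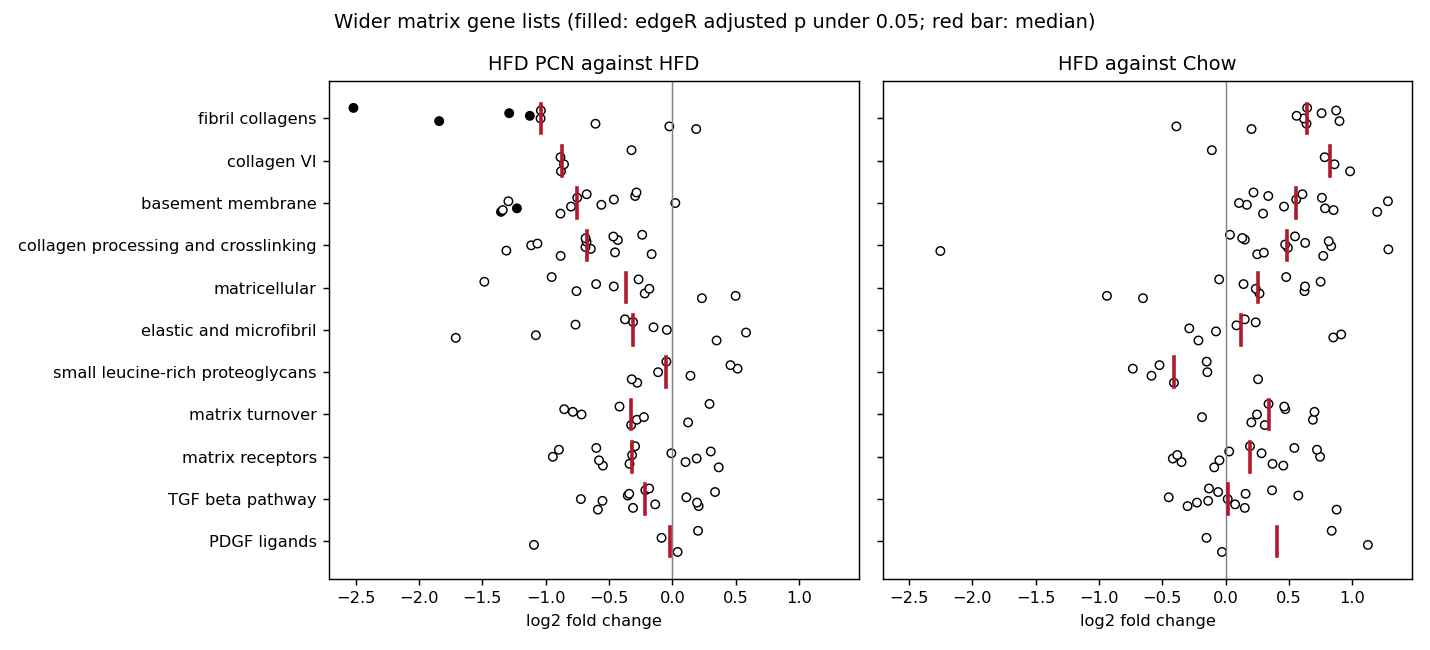
Log2 fold change (horizontal axes) of each measured gene of 11 matrix lists (rows) in HFD PCN against HFD and in HFD against Chow, with a red bar at each list's median and filled points at an edgeR adjusted p under 0.05. The fibril collagens have the lowest median in HFD PCN against HFD (-1.04), and the small leucine-rich proteoglycans lie at -0.05 there and at -0.41 in HFD against Chow.

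Across the 12 libraries, the mean standardised log2 level of the 10 genes was highest in HFD Vehicle 23 (1.17) and HFD 4 (1.12) and lowest in HFD PCN 11 (-1.42) and Chow 8 (-0.91). HFD Vehicle 23 was the highest HFD Vehicle library for 10 of 10 genes, HFD 4 the highest HFD library for 8, and Chow 17 the highest Chow library for 8, while HFD PCN 11 was the lowest HFD PCN library for 8. As a description over these 12 libraries, which share the group differences above, Pearson's r of a gene with the mean of the other 9 was 0.961 for Col3a1, 0.909 for Col1a1, 0.905 for Sparc, 0.894 for Fn1, 0.890 for Col1a2, 0.831 for Col6a1, 0.798 for Pdgfrb and 0.709 for Pdgfra. It was 0.489 for Lum and 0.00 for Dcn. Among 9814 genes with a mean of at least 5 CPM, the non-members most like the mean profile of the 10 were Atp13a2 (r = 0.950), Hr (0.948), Col4a2 (0.938), Selenom (0.935), Cebpa (0.935), Col5a2 (0.931), Ssbp4 (0.926) and Antxr1 (0.922), over 12 libraries and with no test, since they were chosen for it.

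Markers of other cells moved with some of these libraries. The summed level of 10 smooth muscle genes was 634 to 757 CPM in HFD PCN, 695 to 1302 CPM in HFD Vehicle, 582 to 1654 CPM in HFD and 732 to 863 CPM in Chow. HFD 4, HFD Vehicle 50 and HFD Vehicle 23 were its 3 highest libraries, at 1654, 1302 and 1297 CPM. The 6 pericyte genes summed to 180 to 226 CPM in HFD PCN, 213 to 351 CPM in HFD Vehicle, 187 to 535 CPM in HFD and 241 to 263 CPM in Chow. The 8 epithelial genes were lowest in HFD Vehicle 23 (4054 CPM) and HFD 4 (5448 CPM), against 6534 to 10691 CPM elsewhere, and the 5 mesothelial genes were highest there, at 19.98 and 9.88 CPM against 2.14 to 7.58 CPM. Acta2 and Des of smooth muscle and Msln and Upk3b of mesothelium had counts in every library, while the adipocyte genes Adipoq and Plin1 were at 0 in 5 and 4 libraries. In HFD PCN against HFD, smooth muscle genes were negative in 9 of 10 (median log2 fold change -0.38) and pericyte genes in 4 of 5 (median -0.68). Blood endothelial genes were negative there in 8 of 9 (median -0.23). Lymphatic endothelial genes were negative in 2 of 5 (median 0.10) and epithelial genes in 4 of 8 (median 0.0047). No gene of these lists passed. The part of these cells in the results was not tested.

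Other markers of fibroblasts were listed apart from the members. A list of 12 (such as Dpt, Thy1, Cd34 and Vcan) summed to 133 to 198 CPM in HFD PCN, 152 to 363 CPM in HFD Vehicle, 139 to 176 CPM in HFD and 123 to 188 CPM in Chow. None of its 10 measured genes passed in HFD PCN against HFD, 6 of 10 were negative, and the median log2 fold change was -0.13. The list of 10 villus and crypt mesenchyme genes summed to 66.4 to 79.5 CPM in HFD PCN, 72.5 to 87.3 CPM in HFD Vehicle, 75.8 to 100.3 CPM in HFD and 62.5 to 71.9 CPM in Chow. In HFD PCN against HFD 7 of those 10 genes were negative (median -0.39) and none passed. Macrophage genes, listed as another cell type of the lamina propria, were negative in 7 of 7 in HFD PCN against HFD (median -0.82), with the smallest edgeR adjusted p of the list at 0.0562 for Csf1r (-0.95, SE 0.19), named after its value was seen.

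**Figure D5:**
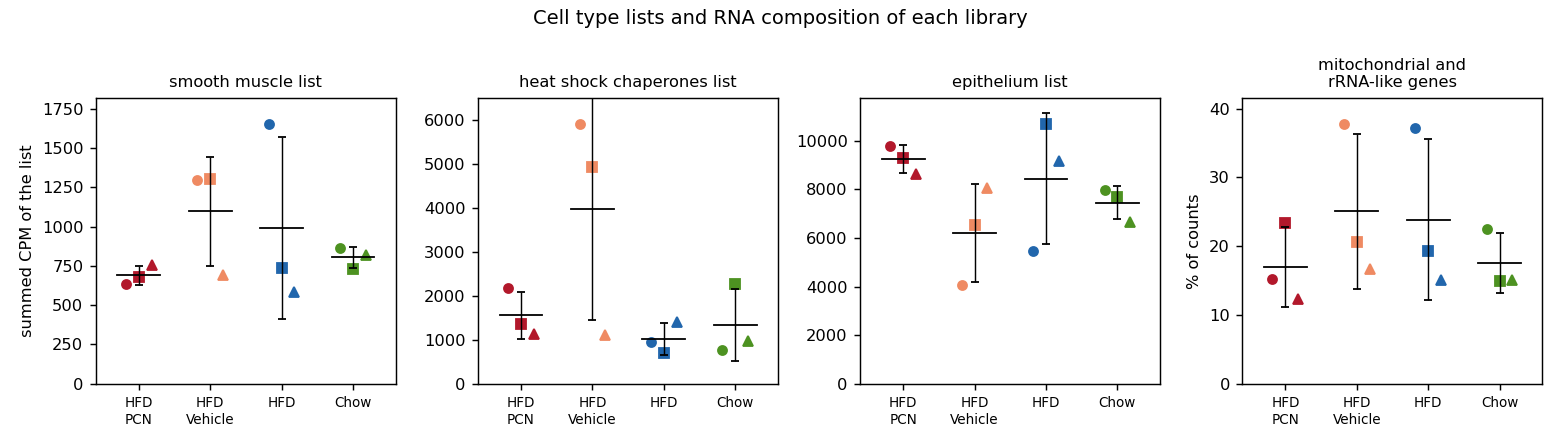
Summed CPM of the smooth muscle, heat shock chaperone and epithelial lists, and percent of counts in mitochondrial and rRNA-like genes (vertical axes from 0), in each library of HFD PCN, HFD Vehicle, HFD and Chow, with mean and SD. HFD Vehicle 23 and HFD 4 lie at 37.8% and 37.2% on the last axis, and HFD Vehicle 23 and 50 lie at 5912 and 4929 CPM on the chaperone axis.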

How the data were processed

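RNA-seq raw counts per gene were taken from 2 tables of 6 libraries each as the authors deposited them (HFD with Chow, and HFD PCN with HFD Vehicle). HISAT2, HTSeq, DESeq2 and the GRCm38 (mm10) build are named, without versions, per the submitters' processing notes, and annotation release and strand setting are not given in the sources used here. Beside them, the authors' deposited comparison columns (log2 fold change, p-value and adjusted p-value, written with decimal commas) were used only where named. Totals per library had a median of 15404357 counts, and precision is limited by counting for Lum.

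The 10 members and the wider lists were chosen with earlier results of these data known. A fit with edgeR 4.0.16 (R 4.3.3) was made for each comparison from the 6 libraries it concerns (filterByExpr, TMM, robust quasi-likelihood F-test), with Benjamini-Hochberg adjustment over all genes tested and a call at an adjusted p under 0.05. Where a comparison drew on both tables (HFD PCN or HFD Vehicle against HFD), their raw counts were joined on shared genes. The SE is approximate, being the absolute log2 fold change over the root of F. CPM used TMM over 12 libraries and the 26121 shared genes, and lengths were merged exons of GENCODE M21. Ratios were tested by exact two-sided permutation over libraries. Profiles used log2(CPM + 0.5). The text names the 10 members, up to 4 called genes of each matrix list or else its non-member with the smallest p, and the 8 non-members with the highest r. The fit was also run on simulated counts with planted changes. These had a fixed dispersion for all genes and no deviating library, so they do not show how the fit handles libraries such as these. Alternatives were DESeq2 1.42.0, limma-voom (limma 3.58.1) with and without library quality weights, RLE size factors, library totals alone, no filter on low counts, leaving out mitochondrial and rRNA-like genes, fitting all 12 libraries, leaving out each library, and leaving out HFD Vehicle 23 and 50 together. Non-overlap with TMM of 6 libraries alone, and the wider lists with libraries left out, were added after seeing the data.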

Additional observations from a re-analysis of the deposited data

How the results depend on the processing

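No paired analysis was possible because the labels give the groups different replicate numbers. Of 580 member fold changes recomputed under the alternatives, 518 kept their direction and their side of the threshold, 35 passed in addition, 13 no longer passed and 14 changed sign, and the cause was not tested. Numbers of genes called (and of members) for HFD PCN against HFD Vehicle, HFD PCN against HFD, HFD Vehicle against HFD and HFD against Chow, in that order, were 339 (2), 403 (5), 32 (0) and 134 (2) with DESeq2, 843 (3), 746 (7), 1 (0) and 351 (3) with no filter on low counts, and 34 (0), 29 (0), 1 (0) and 2 (0) with all 12 libraries in the fit. HFD PCN against HFD Vehicle had 4 genes called with library totals alone and 4 without mitochondrial and rRNA-like genes. With quality weights it had 6558 genes called, a large part of the 16110 tested in the main fit, and 6 members. The main fits tested 16110, 15982, 16255 and 15278 genes in the order above, and more were tested with no filter on low counts. Member counts are descriptions beside these. HFD PCN against HFD had 0 members called with library totals alone, 1 with RLE size factors and 1 without mitochondrial and rRNA-like genes (Col3a1 each time), and 209 genes and 5 members with quality weights. Leaving out 1 library at a time, genes called ranged from 0 to 3697 in HFD PCN against HFD Vehicle (members 0 to 3), from 1 to 452 in HFD PCN against HFD (0 to 6), from 0 to 260 in HFD Vehicle against HFD (0 to 0) and from 4 to 63 in HFD against Chow (0 to 0). Sign changes were these, with the range when 1 library at a time was left out. In HFD PCN against HFD Vehicle with quality weights, Dcn had 0.22 and Pdgfra 0.021. In HFD PCN against HFD, Lum ranged from -0.44 without HFD 30 to 0.084 without HFD 4 (0.040 without HFD 38) and Dcn from -0.13 without HFD 30 to 0.38 without HFD 38. In HFD Vehicle against HFD, Col1a1 ranged from -0.65 without HFD Vehicle 23 to 0.058 without HFD Vehicle 55 (0.0027 without HFD 4), Fn1 from -0.29 without HFD 38 to 0.055 without HFD 4, Col1a2 from -0.059 without HFD Vehicle 23 to 0.42 without HFD Vehicle 55, Col3a1 from -0.42 without HFD Vehicle 23 to 0.019 without HFD Vehicle 50, and Dcn from -0.012 without HFD 30 to 0.47 without HFD 38. Col1a2 had -0.53 there without HFD Vehicle 23 and 50. In HFD against Chow, Lum ranged from -0.40 without Chow 8 to 0.36 without Chow 19 (0.18 without HFD 30). All 252 ratio values recomputed stayed within 1 SD of the main value, taking the larger of the 2 group SDs. Changes of sign among them were not counted, and the design cannot pass the threshold. Lum, at 12 to 71 counts a library, is limited by depth.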
